A study of Mus musculus with 6 samples.

Results

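The Iroquois genes Irx1 to Irx6 were followed across the cell types of the mouse heart and pharynx. They were the 6 rows whose gene symbol matched, out of 32285 genes listed. Their unique molecular identifiers (UMIs, tags that count each captured RNA molecule once) were summed over 35962 of 53362 cell barcodes. A barcode was kept if it had 2500 or more genes with a UMI and a mitochondrial share no higher than 10%. The cells came from the microdissected cardiogenic region of wild-type C57BL/6 embryos at E10.5 (embryonic day), and the labels state that non-cardiac mesoderm, ectoderm and endoderm are also present. The mothers had been pretreated with vehicle and had normal blood glucose (3 samples), or with streptozotocin (STZ), a toxin of insulin-producing cells, and were hyperglycemic (3 samples). The fathers had normal blood glucose in both groups. Droplet 3′ libraries were made, and 6 libraries can be told apart by barcode suffix, but nothing used here links a suffix to a sample. The pooled matrix was therefore treated as 1 sample. STZ and vehicle were not compared and no p-value is given. The main levels are shown with their range over the libraries, which mixes both treatments, and the other values are pooled over them.

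Iroquois genes encode transcription factors of the TALE homeodomain class, whose homeodomain carries an extra loop between its first helices. They were first described in the fruit fly, where they pattern sensory territories. Mammals carry them in a pair of gene clusters that arose by duplication. In the embryonic heart Irx4 is known as a ventricular gene. Irx3 and Irx5 are known for roles in the conduction system and in the gradient of repolarization across the ventricular wall. In the lung and pharynx several members are known from the epithelium.

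Irx1, Irx2 and Irx4 lie on chromosome 13 of the GRCm38 build and Irx3, Irx5 and Irx6 on chromosome 8 (GENCODE M21 annotation). Irx1 (ENSMUSG00000060969) spans chr13:71957921-71963723 on the minus strand, Irx2 spans chr13:72628820-72634198 on the plus strand and Irx4 spans chr13:73260479-73269608 on the plus strand. Irx3 spans chr8:91798525-91802067 on the minus strand, Irx5 spans chr8:92357625-92376286 on the plus strand and Irx6 spans chr8:92674288-92680956 on the plus strand. No protein-coding gene is annotated in any of the 4 gaps between neighbouring members, which measure 665.1 and 626.3 kb on chromosome 13 and 555.6 and 298.0 kb on chromosome 8. The coding exons share a homeobox of 63 codons. Between pairs of members its bases were 83.07% to 91.01% identical, with Irx2 and Irx5 the closest pair.

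Because reads are assigned to similar copies by sequence, a conserved stretch of the homeobox is shown first. These 48 bases encode the recognition helix, the part of the homeodomain that enters the major groove of DNA. They lie within a single exon in each gene, and capitals mark the bases that differ from Irx1.

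Irx1, exon 2, chr13:71959992-71960039, minus strand: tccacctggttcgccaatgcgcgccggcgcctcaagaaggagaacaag

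Irx2, exon 2, chr13:72630805-72630852, plus strand: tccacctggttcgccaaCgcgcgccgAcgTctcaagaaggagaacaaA

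Irx4, exon 5, chr13:73267664-73267711, plus strand: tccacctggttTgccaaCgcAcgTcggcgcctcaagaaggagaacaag

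Irx3, exon 2, chr8:91800496-91800543, minus strand: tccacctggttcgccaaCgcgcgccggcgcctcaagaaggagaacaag

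Irx5, exon 2, chr8:92359768-92359815, plus strand: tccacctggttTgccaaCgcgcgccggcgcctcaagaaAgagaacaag

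Irx6, exon 4, chr8:92677377-92677424, plus strand: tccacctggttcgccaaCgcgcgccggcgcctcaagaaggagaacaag

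Irx2 and Irx4 each differed from Irx1 at 4 of these bases, Irx5 at 3, and Irx3 and Irx6 at 1. None of the differences altered the encoded residue. The longest run of bases shared by the transcripts of any pair of members was 88, between Irx3 and Irx6, and it ended 1351 and 2000 bases from their 3′ ends. The 3′ kit reads near the end of the transcript.

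Cells were classed by per-cell counts of marker genes, none of which is an Irx gene, and each gated class is named by the markers it resembles. Of the retained cells 30299 (84.3%) passed a gate, and 31 classes held at least 50 cells. Of these classes 1 is made of the 5482 cells (15.2%) that passed no gate. It is counted in the ranks, steps and correlations, and held Irx1 at 35.6 CPM, Irx2 at 21.5, Irx3 at 40.4 and Irx5 at 25.7 CPM. The retained medians were 30533 to 35634 UMIs per cell over the libraries, and library totals were 200462921 to 248426458 UMIs. Levels are given as CPM, the UMIs of a gene per 1000000 UMIs of the class, with 95% exact Poisson intervals, and ratios with an interval taken from the exact binomial one. These intervals cover counting error only. Library values are given for libraries with at least 20 cells of the class. The gates held their defining markers: Myl2 reached 3888 CPM in ventricular-like cardiomyocytes, Npr3 reached 339 CPM in endocardium-like cells and Nkx2-1 reached 291 CPM in Nkx2-1 endoderm-like cells. These levels follow from the gates and do not test the names. In atrial-like cardiomyocytes Myh6 stood at 2006 CPM, but Sln, an atrial marker, at 7.82 CPM with a median of 0 UMIs per cell. Sln was as high in outflow-like (9.94 CPM) and atrioventricular canal-like cardiomyocytes (8.70 CPM), where Myh6 stood at 711 and 1874 CPM. Barcode sequences found in more than 1 library belonged to 2890 retained cells (8.04%).

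The members were counted at very different breadth. Irx3 had at least 1 UMI in 11581 cells (32.2%), Irx5 in 9720 (27.0%), Irx2 in 8042 (22.4%), Irx1 in 7985 (22.2%), Irx4 in 2145 (5.96%) and Irx6 in 406 (1.13%). Irx3 reached 10 CPM in 20 of the 31 classes, Irx5 in 18, Irx1 in 16, Irx2 in 11, Irx4 in 3 and Irx6 in 1. In erythroid-like cells, which are deep (median 65113.5 UMIs) and should lack these factors, no member exceeded 0.734 CPM or had a UMI in more than 2.54% of cells. These UMIs were not spread evenly. The 1374 erythroid-like cells of the main erythroid cluster held Irx1 at 0.254 CPM, Irx2 at 0.187 and Irx3 at 0.121 CPM, and 76 cells of a cluster led by Hbb-bs and Hba-a1 held 4.58, 5.73 and 7.16 CPM. Their source was not tested.

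**Figure D1:**
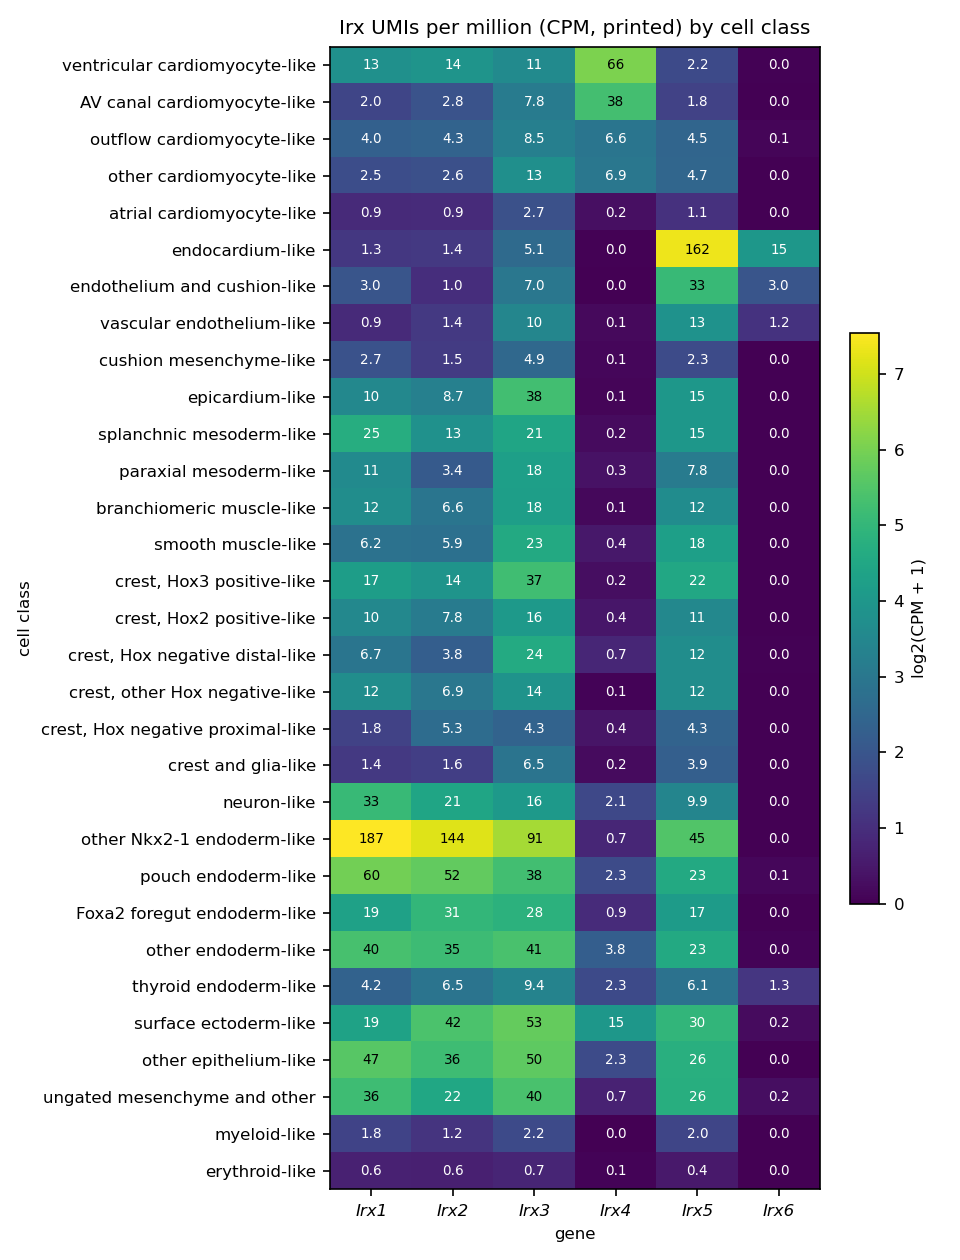
Heat map of the 6 Irx genes (columns) in 31 cell classes (rows), coloured by log2(CPM + 1) with the CPM printed in each cell. Irx4 stands out in ventricular-like (66.3 CPM) and AV canal-like (37.9 CPM) cardiomyocytes, Irx5 and Irx6 in endocardium-like cells (162 and 15.1 CPM), and Irx1, Irx2 and Irx3 in Nkx2-1 endoderm-like cells (187, 144 and 91.0 CPM). The erythroid-like row holds at most 0.734 CPM.

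In the heart muscle, Irx4 was high in ventricular-like and low in atrial-like cells. Over the 6 libraries its level in the 1103 ventricular-like cardiomyocytes was 57.1 CPM at the lowest, 65.8 at the median and 75.4 at the highest. The 722 atrial-like cardiomyocytes held 8 Irx4 UMIs in all (0.244 CPM). Every library was far higher in ventricular-like cells, with no overlap. The pooled level of 66.3 CPM (64.3 to 68.4) was 272-fold the atrial level (interval 138 to 629), a ratio that rests on those 8 UMIs and was 74.6 (25.3 to 364) after thinning each cell to 5000 UMIs.

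An Irx4 UMI was found in 84.0% of ventricular-like cells (81.7 to 86.2, median depth 55053 UMIs), against 0.693% of atrial-like cells (median depth 41513.5) and 0.206% of erythroid-like cells. Thinned to 5000 UMIs the ventricular share was 26.2%. The median ventricular-like cell held 3 Irx4 UMIs, 34.7% held 5 or more, and the highest held 17. Ventricular-like cells made up 3.07% of retained cells and carried 62.2% of all Irx4 UMIs.

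The atrioventricular (AV) canal, the slow-conducting junction between the chambers, came next. AV canal-like cardiomyocytes (519 cells) held Irx4 at 29.5, 38.8 and 43.8 CPM (lowest, median and highest library). All 6 libraries lay below the ventricular range and above the atrial one. The pooled 37.9 CPM (35.4 to 40.5) was 155-fold the atrial level (78.3 to 360), and the ventricular level was 1.75-fold that of the AV canal-like cells (1.63 to 1.89). Under a gate asking for 1 more marker, which 53.0% of the AV canal-like cells failed, that last ratio was 1.43.

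AV canal-like cells were not uniform. Graph clusters made without the Irx genes split them into 345 cells of a cluster led by Bmp2, Cacna2d2 and Rspo3, with Irx4 at 43.0 CPM (39.6 to 46.6), and 52 cells of a cluster led by Vsnl1 and Shox2, a sinus node gene, with Irx4 at 6.75 CPM (3.69 to 11.3). A further 62 cells fell in the main ventricular cluster and held 51.8 CPM. Ventricular-like cells split likewise. The 951 in the cluster led by Myl2 and Myh7 held 69.7 CPM, and the 77 in a cluster led by Armh4 and Myocd held 10.0 CPM (6.62 to 14.6).

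Outflow-like cardiomyocytes (355 cells) held Irx4 at 5.70, 2.38, 28.0, 2.75, 3.34 and 3.08 CPM in libraries 1 to 6. Library 3 stood apart with 35 cells, and 1 outflow-like cell held 30 Irx4 UMIs. The pooled 6.61 CPM fell to 3.58 without library 3. In the ventricular-like cells Irx4 was 10.0-fold higher than in the outflow-like cells (8.23 to 12.4), and in 6 of 6 libraries. That fold depends on library 3: without it the levels were 64.7 and 3.58 CPM. The outflow gate was loose, and 319 of its 355 cells (89.9%) left the class when 1 more marker was required.

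Irx1 and Irx2, the chromosome 13 neighbours of Irx4, had the same direction between chambers at lower counts. Irx1 stood at 8.98, 12.2 and 18.4 CPM in ventricular-like cells over the libraries and at 0.855 CPM pooled in atrial-like cells. Its ratio was 14.9 (10.3 to 22.6), higher in 6 of 6 libraries. Irx2 stood at 9.77, 14.8 and 17.2 CPM in ventricular-like cells and at 0.886 CPM in atrial-like cells, a ratio of 15.7 (10.8 to 23.5) in 6 of 6 libraries. The atrial-like denominators are 28 and 29 UMIs. They lie above the main erythroid cluster (0.254 CPM, 0.161 to 0.381 for Irx1 and 0.187 CPM, 0.109 to 0.300 for Irx2), while against all erythroid-like cells the interval of the ratio held 1 (1.40, 0.859 to 2.22 and 1.498, 0.925 to 2.38). Within the atrial-like class Irx1 stood at 0.975 CPM (0.618 to 1.46) in the cluster led by Nppa. The ratios between chambers also depended on the gate. With 1 more marker required they were 7.34 and 8.54, and without the cells of highest doublet score they were 23.5 and 41.2.

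Irx1 and Irx2 also separated the ventricle from the AV canal. Irx1 was 6.48-fold (4.78 to 8.99) and Irx2 4.99-fold (3.85 to 6.56) higher in ventricular-like than in AV canal-like cells, each in 6 of 6 libraries. For Irx1 the AV canal level was 1.97 CPM, and for Irx2 it was 2.78 CPM. An Irx1 UMI was found in 31.2% of ventricular-like cells and an Irx2 UMI in 28.7%.

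Irx3 was the least chamber-restricted of these. Its ventricular level was 9.17, 10.6 and 15.2 CPM over the libraries, against 2.66 CPM in atrial-like cells, a ratio of 4.26 (3.41 to 5.39) in 6 of 6 libraries. Against AV canal-like cells the ratio was 1.44 (1.22 to 1.71) and against outflow-like cells 1.33 (1.10 to 1.61), the latter in only 4 of 6 libraries. Irx5 stayed under 10 CPM in every cardiomyocyte class, with 2.21 CPM in ventricular-like and 1.13 CPM in atrial-like cells. Irx6 had 2 UMIs in ventricular-like and none in atrial-like cells, which allows up to 0.113 CPM in the latter.

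**Figure D2:**
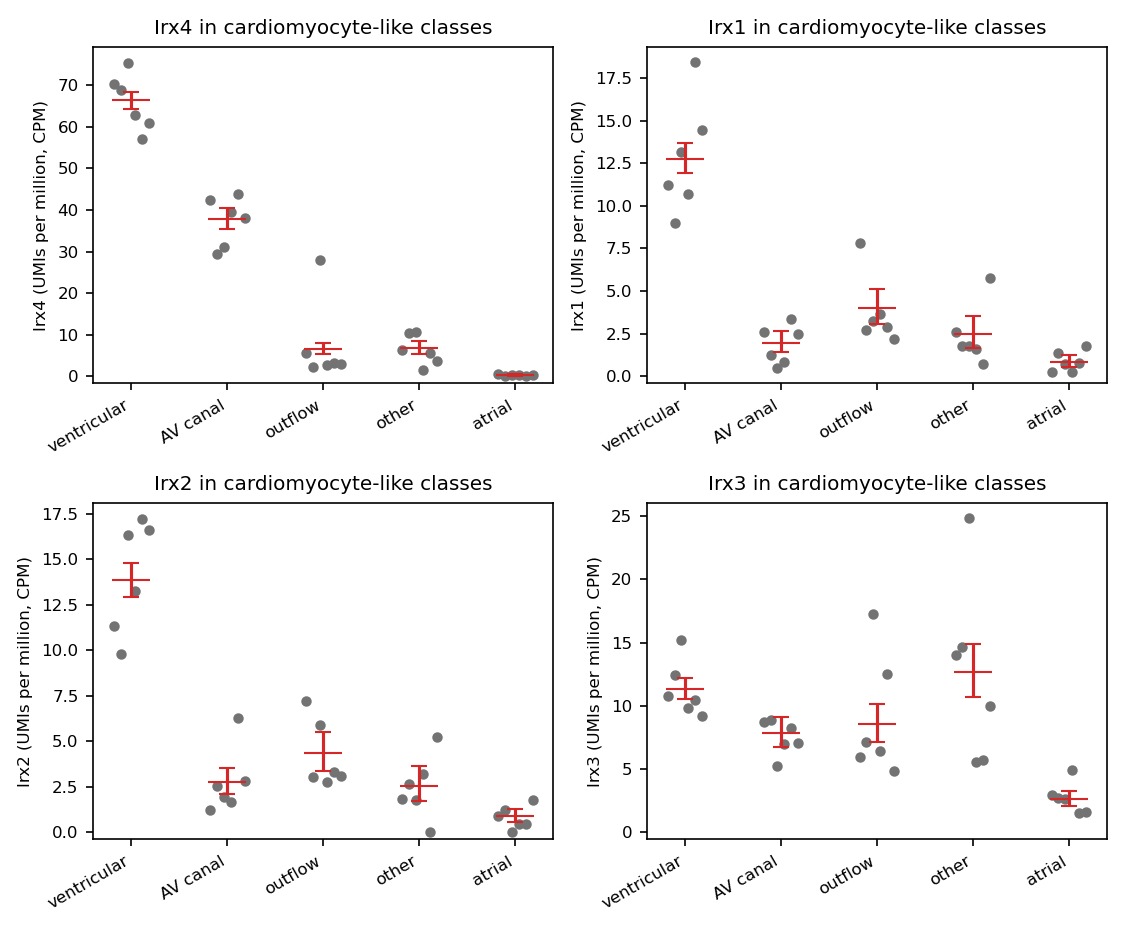
CPM of Irx4, Irx1, Irx2 and Irx3 (y axis, linear, one panel each) in 5 cardiomyocyte-like classes (x axis). Grey points are the 6 libraries, and red lines and bars are the pooled value and its 95% counting interval. All libraries of the ventricular-like class lie above all libraries of the atrial-like class in each panel, and the single high outflow point for Irx4 is library 3 at 28.0 CPM.

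Between ventricular-like and atrial-like cells 4 of the 6 members reached 10 CPM in either class, and those 4 were at least 2-fold higher in the ventricular-like cells. Of 8423 genes at 10 CPM in either class, 1.63% were called in that direction and 4.17% in the other. Against outflow-like cells 3 of 4 members were called ventricular, where 1.65% of 8786 genes were and 9.01% were called in the other direction. Against AV canal-like cells this was 2 of 4, where 1.54% of 8636 genes were and 7.21% in the other direction. Between AV canal-like and atrial-like cells Irx4 alone reached 10 CPM and was called, where 3.67% of 8649 genes were higher in AV canal-like and 1.24% in atrial-like cells. A member can reach 10 CPM through the class in which it is high, so these counts are descriptions. Against atrial-like and outflow-like cells the 4 reached 10 CPM only in the ventricular-like cells, which fixes their direction. Against AV canal-like cells this held for Irx1, Irx2 and Irx3, while Irx4 reached 10 CPM in both classes. Between AV canal-like and atrial-like cells Irx4 reached it only in the former. The other TALE genes, cofactors such as Meis and Pbx, differed little. Of 8 at 10 CPM none was called ventricular and 1 was called atrial, Meis3 (6.89 against 22.7 CPM), with a median log2 ratio of -0.05 against -0.03 over all the genes tested.

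Genes that function beside the Irx factors in the heart were also compared. Of 11 chamber and patterning factors 2 were higher in ventricular-like cells, Hey2, a gate marker, and Hand1 (87.3 against 1.802 CPM). Higher in atrial-like cells were 4, Hey1 (4.21 against 44.1 CPM), Tbx5 (35.4 against 94.6 CPM) and the gate markers Nr2f1 and Nr2f2. Among 9 genes linked with Iroquois factors in the heart 3 were higher in ventricular-like and 3 in atrial-like cells. Gja1, the gap junction protein connexin 43, stood at 38.7 against 10.9 CPM. Gja5, the atrial and conduction connexin 40, stood at 6.04 against 24.6 CPM, and Kcnd2, a transient outward potassium channel, at 45.4 against 129 CPM. The other called genes of this list, Myh7, Myl2 and Myh6, are gate markers.

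In the inner lining of the heart, Irx5 reached its highest level of the 31 classes. Over the 6 libraries Irx5 in the 1228 endocardium-like cells was 122 CPM at the lowest, 153 at the median and 192 at the highest. In the 771 vascular endothelium-like cells it was 6.39, 13.9 and 23.9 CPM. The ranges did not overlap. The pooled 162 CPM (159 to 165) was 12.2-fold (11.1 to 13.4) the vascular level of 13.3 CPM. It was 70.3-fold (47.9 to 108) the level of 2.31 CPM in cushion mesenchyme-like cells, the cells that leave the endocardium to form valve tissue. Irx5 was detected in 68.1% of endocardium-like cells (41.5% after thinning), with a median of 4 UMIs and a maximum of 52, against 16.5% of vascular endothelium-like cells at a similar depth (medians 38636 and 37686 UMIs).

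Irx5 divided the endocardium-like class itself. The 856 cells (69.7%) in the cluster led by Klhl4, Adgrg6 and Npr3 held Irx5 at 225 CPM (220 to 230), with 174 in the lowest library, 222 at the median and 247 in the highest. An Irx5 UMI was found in 91.1% of them. The 300 cells (24.4%) in the cluster led by Igfbp7, Pdlim3 and Hapln1, a cushion matrix gene, held 7.56 CPM (6.04 to 9.35), with 1.75, 5.95 and 18.2 over the libraries. The class average of 162 CPM thus joined cells with high and low Irx5. The same cut ran through the vascular gate: its 670 cells in the cluster led by Cldn5 and Emcn held 3.18 CPM, and its 53 cells in the Npr3 cluster held 157 CPM (140 to 175). When clusters in place of gates defined the classes, the ratio of endocardium to vascular endothelium was 73.7. That ratio sets the Npr3 cluster alone (216 CPM) against the Cldn5 and Emcn cluster (2.93 CPM). It leaves out the Pdlim3 and Hapln1 cluster (4.55 CPM), of which 37.6% was endocardium-like.

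Irx6, the chromosome 8 neighbour of Irx5, was found mostly in the same class. Endocardium-like cells carried 85.0% of all its UMIs at 6.38, 12.6 and 23.9 CPM over the libraries, a wide spread for 796 UMIs. The pooled level was 15.1 CPM (14.1 to 16.2), 13.1-fold that of vascular endothelium-like cells (9.48 to 18.5) and higher in 6 of 6 libraries. Cushion mesenchyme-like cells had no Irx6 UMI (interval up to 0.327 CPM). Against 3 counts over the cushion class (0.266 CPM), which is below that limit, the pooled endocardium-like level was 56.8-fold higher. Against the limit of the interval the fold is smaller. An Irx6 UMI was found in 26.4% of endocardium-like cells, and in 6.35% after thinning. Within the class, Irx6 stood at 21.2 CPM (19.7 to 22.7) in the Npr3 cluster and at 0.089 CPM (1 UMI) in the Pdlim3 and Hapln1 cluster.

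Irx3, the third member of the chromosome 8 cluster, was lower in the endocardium-like than in the vascular endothelium-like class. It stood at 5.07 CPM in endocardium-like and 10.0 CPM in vascular endothelium-like cells, 1.98-fold higher in the latter (1.68 to 2.33), and in none of the 6 libraries higher in the endocardium. By cluster, it stood at 6.404 CPM (5.62 to 7.27) in the Npr3 part of the endocardium-like class and 0.623 CPM (0.25 to 1.28) in the Pdlim3 and Hapln1 part, the same order as for Irx5 and Irx6. The main vascular cluster held 10.1 CPM (8.996 to 11.3) within its class. As whole clusters the Npr3 cluster held 7.14 CPM (6.36 to 7.99) and the vascular cluster 9.52 CPM (8.55 to 10.6). Irx1, Irx2 and Irx4 stayed at or below 1.39 CPM in both classes. Of the 3 members at 10 CPM in either class, 2 were called higher in endocardium-like cells, where 4.28% of 8768 genes were and 3.01% were in the other direction. Irx6 reached 10 CPM only in the endocardium-like and Irx3 only in the vascular endothelium-like cells, which fixes their direction. Irx5 reached it in both. Of 9 other TALE genes 3 were called higher in endocardium-like cells, Meis1 (137 against 45.8 CPM), Meis2 (519 against 198 CPM) and Pknox2 (16.05 against 7.23 CPM). Against cushion mesenchyme-like cells 2 members reached 10 CPM and both were called higher in endocardium-like cells, where 5.5% of 9247 genes were (8.38% in the other direction). Both reached 10 CPM only in the endocardium-like cells, which fixes their direction.

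**Figure D3:**
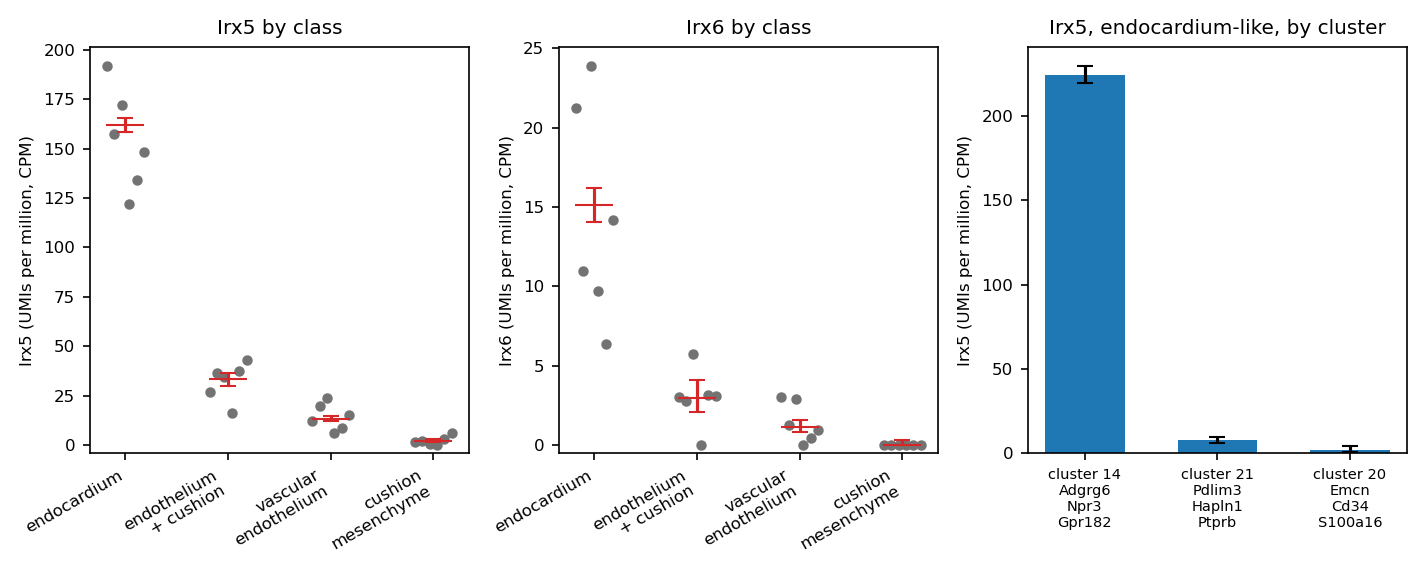
Left and middle, CPM of Irx5 and Irx6 (y axes) in 4 endothelial and cushion classes, with 6 libraries as grey points and the pooled value with its 95% counting interval in red; right, Irx5 in the endocardium-like class split by graph cluster, with bars for the pooled value and the same interval. Endocardium-like libraries lie above the others for both genes, and the right panel shows 225 CPM in cluster 14 against 7.56 CPM in cluster 21 and 1.95 CPM in cluster 20.

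Among the 31 classes, the highest levels of Irx1, Irx2 and Irx3 were in Nkx2-1 endoderm-like cells. Among whole graph clusters Irx3 was highest in the mesenchyme cluster led by Dlg2, Ccbe1 and Tlx1, at 94.3 CPM (91.5 to 97.2), and Irx1 in the one led by Foxf1 and Hsd11b2, at 132 CPM. Nkx2-1 endoderm-like cells (404 cells) are epithelial cells with Nkx2-1, a factor of thyroid, trachea and lung, and fewer than 2 of the thyroid markers Hhex, Pax8 and Foxe1. In them Irx1 was 145 CPM in the lowest library, 181 at the median and 205 in the highest, Irx2 was 107, 144 and 168 CPM, and Irx3 was 79.2, 93.9 and 102 CPM. Irx5 followed with 36.7, 41.5 and 61.7 CPM. Pooled, the levels were 187 (179 to 194), 144 (138 to 151), 91.0 (85.7 to 96.5) and 44.6 CPM (41.0 to 48.5). UMIs of Irx1 were found in 91.1% of the cells, of Irx2 in 93.3%, of Irx3 in 81.2% and of Irx5 in 61.9%, at a median depth of 26150.5 UMIs. Irx4 stood at 0.738 CPM, and Irx6 had no UMI, which allows up to 0.303 CPM.

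Thyroid-like cells, which share Nkx2-1 (364 CPM) but carry the thyroid markers, held little of any member. In these 151 cells Irx1 stood at 4.20 CPM, Irx2 at 6.47, Irx3 at 9.38 and Irx5 at 6.14 CPM, and an Irx1 UMI was found in 3.97% of them. A graph cluster that also has 151 cells, of which 88.7% were thyroid-like, held less: no Irx1 UMI (interval up to 1.36 CPM), 1 Irx2 UMI (0.369 CPM), Irx3 at 4.80 CPM and Irx5 at 2.59 CPM. The 134 thyroid-like cells in it held no Irx1 UMI, so the Irx1 UMIs of the class lay in its other cells. The folds that follow are for the gate. The Nkx2-1 endoderm-like level was 44.4-fold higher for Irx1 (25.9 to 83.5), 22.3-fold for Irx2 (14.4 to 36.6), 9.70-fold for Irx3 (6.72 to 14.6) and 7.26-fold for Irx5 (4.61 to 12.2), in 5 of the 5 libraries with enough cells. The thyroid-like cells were shallower (median 16492 UMIs), and their Irx2 level fell to 3.62 CPM without library 6.

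Between these classes 4 members reached 10 CPM and the 4 were called higher in Nkx2-1 endoderm-like cells, as were 6.18% of 10157 genes, with 14% called in the other direction. These members reached 10 CPM only in the Nkx2-1 endoderm-like cells, so the direction of the count is fixed by the filter. None of 11 other TALE genes was called in either direction. Of 11 endoderm patterning genes 5 were called in the same direction as the Irx genes, among them Shh (260 against 13.3 CPM), the hedgehog signal of the ventral foregut, Foxa2 (89.5 against 5.50 CPM), a foregut pioneer factor, and Etv5 (127 against 5.82 CPM), a target of FGF signalling. Hhex, a gate marker, and Bmp4 (42.8 against 137 CPM) were called in the other. Shh and Foxa2 are also markers of the endoderm gate, which thyroid-like cells could pass through Pax8 instead. Their differences are therefore not independent of the gates.

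Nkx2-1 marked the difference even within a cluster. The cluster led by Shh, Nkx2-1 and Foxa2 held 316 cells of the Nkx2-1 gate and 345 of the Foxa2 foregut gate, in which Nkx2-1 did not reach 2 UMIs. Irx1 stood at 186 CPM (178 to 194) in the former and 21.5 CPM (19.0 to 24.3) in the latter. Over the libraries this was 158, 179 and 218 CPM against 18.01, 22.3 and 25.6 CPM, with no overlap. Irx2 stood at 146 against 37.6 CPM, Irx3 at 91.4 against 31.1 CPM and Irx5 at 47.0 against 19.4 CPM. The part of depth in these differences was not tested.

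The pharyngeal pouches, the outpocketings that form thymus and parathyroid, carried intermediate levels. In pouch-like endoderm (1675 cells) Irx1 stood at 43.5, 59.4 and 72.9 CPM over the libraries, below each library of the Nkx2-1 endoderm-like cells. The pooled Irx1 level of 60.3 CPM (58.4 to 62.2) was 3.09-fold below that class (2.94 to 3.26). It was 3.21-fold above the 18.8 CPM of Foxa2 foregut-like endoderm (2.87 to 3.59) in 6 of 6 libraries. Irx2 stood at 51.9 CPM against 30.9, Irx3 at 37.5 against 27.7 and Irx5 at 23.3 against 16.6 CPM in the same pair of classes, so that 1 of 4 members was called at 2-fold, where 2.61% of 9218 genes were (2.7% in the other direction). Within the pouch-like class the cluster led by Pax9, Aldh1a1 and Ripply3 (450 cells) held Irx1 at 100.04 CPM (95.4 to 104.8) and Irx2 at 102 CPM, and the cells of a cluster led by Foxe1 held 14.1 and 24.8 CPM.

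Surface ectoderm-like cells had a different mixture from the pouch. In these 1781 cells Irx3 stood at 45.8, 53.5 and 59.2 CPM over the libraries, against 29.0, 36.6 and 43.3 CPM in pouch-like cells, with no overlap. The pooled ratio was 1.42 (1.34 to 1.501). Irx5 was 1.31-fold higher (1.22 to 1.40), and Irx1 was 3.11-fold lower (2.89 to 3.34), each with the same direction in 6 of 6 libraries. Irx2 was 1.24-fold lower (1.17 to 1.31), at 41.9 against 51.9 CPM, in 5 of 6 libraries.

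Irx4 also reached 10 CPM here. Surface ectoderm-like cells held it at 9.15, 13.4 and 21.6 CPM over the libraries, against 1.82, 2.42 and 2.62 CPM in pouch-like cells. The pooled 14.8 CPM (13.8 to 15.9) was 6.41-fold the pouch level (5.37 to 7.70), and an Irx4 UMI was found in 24.03% of the cells. It lay mostly in the cluster led by Sostdc1, Pdgfa, Wnt6 and Trp63, the last a master factor of stratified epithelium (831 cells, 27.4 CPM, interval 25.3 to 29.7), and in a smaller one led by Pdgfa and Sfn (118 cells, 19.4 CPM). In the ectoderm clusters led by Foxi2 and Neurog2 (298 cells) and by Tac2 and Krt8 (314 cells) it stood at 3.71 and 3.85 CPM. Of 5 members at 10 CPM in either class, 1 was called higher in surface ectoderm-like cells (Irx4) and 1 in pouch-like cells (Irx1), where 4.0% and 2.8% of 9329 genes were. Irx4 reached 10 CPM only in the surface ectoderm-like cells, which fixes its direction.

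In mesenchyme the class averages joined clusters with high and low levels. Cranial neural crest-like cells were gated by their Hox code, which records the arch they populate. Irx3 stood at 31.3, 36.4 and 41.4 CPM over the libraries in cells with group 3 Hox genes (3341 cells), against 15.5 CPM pooled in cells with group 2 Hox genes (4551 cells), 2.35-fold (2.25 to 2.47). Irx5 was 2.09-fold higher (1.97 to 2.21), Irx2 1.81-fold (1.69 to 1.95) and Irx1 1.67-fold (1.57 to 1.77), each in 6 of 6 libraries. Of 4 members at 10 CPM 2 were called, where 1.39% of 8561 genes were (0.467% in the other direction), and none of 10 other TALE genes was.

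Within each Hox class the level differed widely between clusters. Among the group 3 cells, 344 cells of the cluster led by Dlg2, Ccbe1 and Tlx1 held Irx3 at 89.9, 108 and 120 CPM over the libraries. The 819 cells of the cluster with Lix1 and Ppp2r2b among its leading genes held 82.8, 92.6 and 105.2 CPM. The 1141 cells of the cluster led by Hoxd4 and Phactr3, the largest of the class, held 1.77, 3.10 and 4.35 CPM. Irx5 ran parallel at 69.6, 51.6 and 2.41 CPM pooled in those clusters.

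Both clusters were also high among the group 2 cells, where 352 cells of the Tlx1 cluster held Irx3 at 98.2 CPM (92.4 to 104) and 170 cells of the Lix1 cluster held 100.2 CPM (91.7 to 109), against 1.62 CPM (1.33 to 1.95) in 1539 cells of the cluster led by Dlx6os1 and Hmx1. Among Hox-negative distal cells, 89 cells of the Tlx1 cluster held 90.1 CPM. Where the classes differed in their average, they also differed in the share of these clusters: the Tlx1 and Lix1 clusters made up 10.3% and 24.5% of the group 3 cells, and 7.73% and 3.74% of the group 2 cells.

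Irx1 had its mesenchymal peak elsewhere. A cluster led by Foxf1, Hsd11b2, Cxcl12 and Aldh1a2, genes of splanchnic mesenchyme and retinoic acid synthesis, held Irx1 at 87.3, 143 and 152 CPM over the libraries, with Irx2 at 61.3, Irx3 at 79.2 and Irx5 at 51.7 CPM pooled. In splanchnic mesoderm-like cells as a whole (2757 cells) Irx1 stood at 72.4, 68.9, 6.01, 26.5, 17.3 and 20.8 CPM in libraries 1 to 6. Libraries 1 and 2 stood far above the others. In them the Foxf1 and Hsd11b2 cluster made up 31.9% and 25.1% of the class, against 3.97% to 8.06% in the other 4. Within that cluster, the splanchnic mesoderm-like cells of the 5 libraries with at least 20 cells ran from 98.4 to 180 CPM. In 867 cells of the cluster with Ifitm1 and Osr1 among its leading genes, Irx1 stood at 3.29 CPM, and in 674 cells of the cluster led by Cxcl13 and Nkx6-1 at 3.25 CPM.

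**Figure D4:**
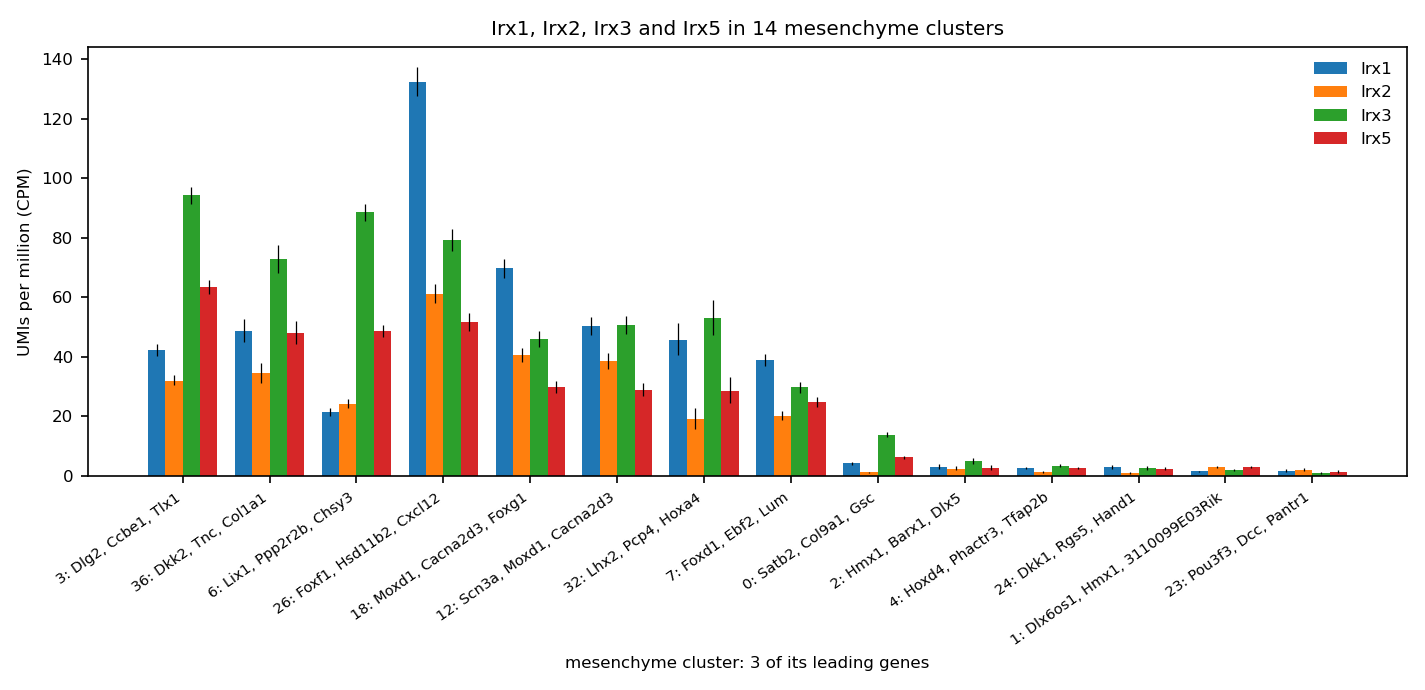
CPM of Irx1, Irx2, Irx3 and Irx5 (bars, linear axis) in 14 mesenchyme clusters, each labelled by its number and 3 of its leading genes, with 95% counting intervals. The 8 clusters on the left hold all 4 genes at 19.0 CPM or more, Irx1 peaks at 132 CPM in cluster 26 and Irx3 at 94.3 CPM in cluster 3, and the 6 clusters on the right hold at most 13.7 CPM of any of them. The 14 clusters were chosen after their values were seen and leave out intermediate ones such as cluster 29 (Irx3 20.4 CPM, Irx1 14.1 CPM) and cluster 37 (Irx3 30.2 CPM, Irx1 14.7 CPM), and in cluster 7 the libraries range from 1.25 to 43.2 CPM for Irx3 and from 4.47 to 56.9 CPM for Irx1.

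The epicardium is the outer covering of the heart. In the 1516 epicardium-like cells Irx3 stood at 32.6, 36.6 and 43.2 CPM over the libraries and was found in 58.4% of cells. This placed the class 6th of the 31 for Irx3, level with pouch-like cells (37.8 against 37.5 CPM pooled, ratio 1.01, 0.951 to 1.06). In the 911 cells of the cluster led by Upk1b, Upk3b and Wt1, Irx3 stood at 33.7 CPM (32.1 to 35.4) while Irx1 stood at 0.988 CPM (0.729 to 1.31), Irx2 at 1.46 and Irx5 at 6.2 CPM. The 120 epicardium-gated cells of a cluster led by Dkk2, Tnc and Col1a1 held Irx1 at 42.5 CPM as well as Irx3 at 61.5 CPM. Against splanchnic mesoderm-like cells Irx3 was 1.81-fold higher (1.70 to 1.92) in only 4 of 6 libraries. Irx1 was 2.42-fold lower (2.22 to 2.63), in 5 of 6 libraries, with epicardium-like levels of 8.20, 8.65, 6.74, 22.9, 12.5 and 10.7 CPM in libraries 1 to 6. In the same order the splanchnic mesoderm-like levels were 72.4, 68.9, 6.01, 26.5, 17.3 and 20.8 CPM. They reached 2-fold the epicardium-like ones only in libraries 1 and 2, where they stand far above the other 4. Irx1 was the 1 of 4 members at 10 CPM that was called, in the direction in which 6.25% of 9281 genes were, with 6.84% in the other.

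Outside these tissues levels were lower or uneven. Neuron-like cells (220 cells, 5 libraries) held Irx1 at 16.8, 35.2 and 40.8 CPM and Irx2 at 20.6 CPM pooled. Crest-like cells of no listed Hox or arch group (756 cells) held Irx1 at 12.1 CPM, which fell to 6.84 CPM without library 4, and Irx5 at 12.1 CPM, which fell to 7.67 CPM. Of 89 levels of at least 5 CPM recomputed without each library in turn, 4 moved by over 1.5 times: these 2, Irx4 in outflow-like cells and Irx2 in thyroid-like cells.

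Beyond their highest classes the order of levels was loose. Each gene's 31 classes give 30 neighbouring steps, and the interval of the ratio held 1 in 21 steps for Irx1, 22 for Irx2, Irx3 and Irx5, 24 for Irx4 and 28 for Irx6. Sorting places similar levels side by side, so many ratios near 1 follow from the sorting. In steps 15 to 30 of Irx6 and step 30 of Irx4 both classes had no UMI, and the interval holds 1 by construction. The order ran from Nkx2-1 endoderm-like to pouch-like cells for Irx1 and Irx2, and from Nkx2-1 endoderm-like to surface ectoderm-like cells for Irx3, a step of 1.71-fold (1.59 to 1.83). For Irx4 it ran from ventricular-like to AV canal-like to surface ectoderm-like to other cardiomyocyte-like cells, each step in 6 of 6 libraries. Irx5 stepped down 3.63-fold (3.33 to 3.97) from endocardium-like to Nkx2-1 endoderm-like cells. Irx6 stepped down 5.07-fold (3.63 to 7.29) from endocardium-like cells to cells with both endothelial and cushion markers, of which 90.6% left the class under the stricter gate. With each cell thinned to 5000 UMIs that ratio was 2.99.

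Members that share a class were in the same cells to differing degrees. In Nkx2-1 endoderm-like cells 94.8% held UMIs of at least 2 members and 50.2% of exactly 4. There the share with both genes was close to the product of the single shares, 87.6% against 85.0% for Irx1 and Irx2 and 54.7% against 50.2% for Irx3 and Irx5, and 1.02 to 1.09 times it over the 6 pairs of Irx1, Irx2, Irx3 and Irx5 (0.993 to 1.16 with each cell thinned to 5000 UMIs). In ventricular-like cells 52.5% held at least 2 members and in endocardium-like cells 34.6%, against 2.91% of atrial-like and 2.19% of erythroid-like cells. Irx1 and Irx2 were both found in 20.04% of ventricular-like cells (17.7 to 22.5), where the product of the single shares is 8.96%. In group 3 crest-like cells Irx3 and Irx5 were both found in 30.7% (29.2 to 32.3) against a product of 17.2%, and in endocardium-like cells Irx5 and Irx6 in 26.1% (23.7 to 28.7) against 17.96%. In surface ectoderm-like cells Irx1 and Irx4 were found together in 4.83% (3.88 to 5.93), below the product of 6.396%. With each cell thinned to 5000 UMIs the share with both genes over the product was 3.46, 2.52 and 1.85 for the pairs in ventricular-like, crest-like and endocardium-like cells, and 0.419 for Irx1 and Irx4 in surface ectoderm-like cells, of which only 0.225% then held both. The part of clusters within a class was not tested.

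Over the 31 classes neighbours on a chromosome were not always the members with the most similar pattern. Correlations of log2(CPM + 1) are descriptions, since the classes share libraries and depth. Irx1 and Irx2 had the highest correlation (Pearson r 0.942, Spearman rho 0.935), and each ranked first for the other among 12454 genes at 10 CPM in a class. Irx3, on the other chromosome, was next for Irx1 (0.872 and 0.873). By Pearson r Irx4 was weakly related to its neighbours Irx1 (0.137) and Irx2 (0.277), while the rho values were higher, at 0.440 and 0.549. Without the cardiomyocyte classes the r values were 0.482 and 0.638. Irx3 and Irx5 stood at r 0.654 (rho 0.710), and at r 0.949 without the 3 endothelial classes. Without them Irx5 also rose to r 0.864 with Irx1 (from 0.531) and 0.845 with Irx2 (from 0.501), on the other chromosome. Irx5 and Irx6 stood at r 0.521 (rho 0.454), and at r 0.047 without the 3 endothelial classes. In the classes then left, Irx6 was at most 1.29 CPM, on 4 UMIs, so the last value says little about the pair.

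**Figure D5:**
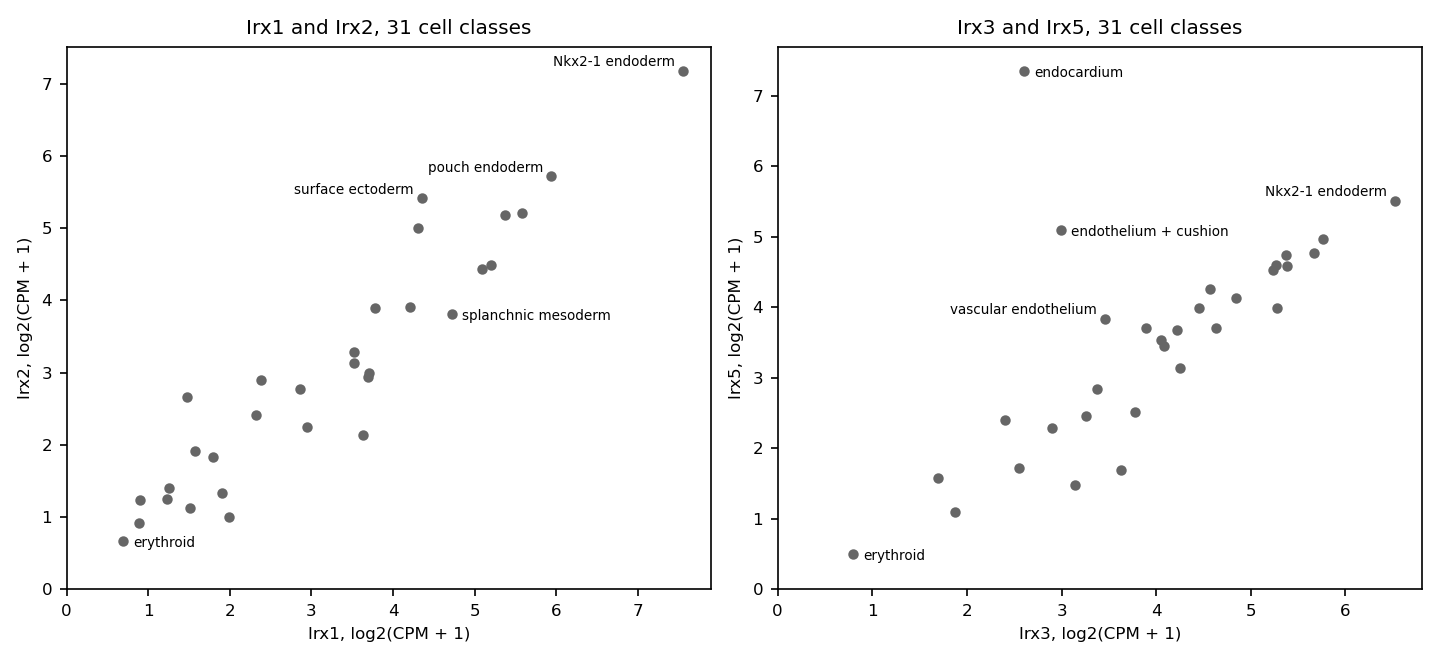
Levels of Irx2 against Irx1 (left) and Irx5 against Irx3 (right) as log2(CPM + 1), 1 point for each of 31 cell classes. Irx1 and Irx2 lie along a single band (Pearson r 0.942), and for Irx3 and Irx5 the endocardium-like and the endothelium and cushion-like classes lie far above the band formed by the others (0.654 with all classes, 0.949 without the 3 endothelial classes).

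The genes with the most similar pattern over the classes were picked by Pearson r. After Irx2 and Irx3, those for Irx1 were Arg1 (0.859), which encodes arginase, Phyhipl (0.813) and Trim2 (0.810). For Irx2 they included Arg1 (0.858), Gm20554 (0.858) and Wdr31 (0.858), and for Irx3 they included Pak4 (0.844), Arl4c (0.832) and Taf8 (0.828). Those for Irx4 were Ndufs6 (0.853), a subunit of respiratory complex I, Wdr93 (0.804), Myl2 (0.775), a gate marker, Mb (0.769), which encodes myoglobin, and Nudt8 (0.766). For Irx5 they were Dapk1 (0.7995), Samd5 (0.796), Hyal2 (0.793), Mthfsd (0.786) and Gcc2 (0.774). For Irx6 they were Gpr182 (0.903), Gm44516 (0.896), Gm30938 (0.870), Hs3st4 (0.855) and Klhl4 (0.853), all 5 highest in endocardium-like cells. By Spearman rho 4 of the 5 stayed among the first 5 for Irx2, 2 for Irx1 and Irx3, 1 for Irx5 and none for Irx4 and Irx6.

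Some of these lie beside the Irx genes. Gm20554, a long noncoding RNA on the opposite strand, starts 256 bp upstream of Irx2. It peaked in Nkx2-1 endoderm-like cells (12.4 CPM), as Irx2 did, and stood at 0.323 CPM in thyroid-like cells. In no other class did it exceed 2.89 CPM, and in neuron-like cells, with Irx2 at 20.6 CPM, it stood at 0.261 CPM. The window between the pair is shown because 2 transcripts with correlated levels over the classes (r 0.858) leave from it. It is chr13:72628570-72628819 of GRCm38.p6 (RefSeq promoter table, plus strand), with CG dinucleotides in capitals.

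Irx2 promoter: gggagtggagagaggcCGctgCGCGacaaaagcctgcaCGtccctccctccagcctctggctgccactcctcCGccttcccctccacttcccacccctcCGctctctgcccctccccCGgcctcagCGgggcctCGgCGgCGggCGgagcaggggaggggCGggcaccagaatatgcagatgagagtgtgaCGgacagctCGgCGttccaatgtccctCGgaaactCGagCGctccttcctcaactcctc

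Its GC content is 68.4%, against a median of 52.4% over 32851 promoters, and it holds 19 CG against a median of 6. As many were held by 19.73% of promoters. The promoter table matched 3 of the 6 members.

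Other neighbours varied less or differently. Ndufs6, 50.2 kb from Irx4, stood at 387 CPM in ventricular-like, 405 in AV canal-like and 249.995 in atrial-like cells, and ranged only 2.88-fold over the classes. Crnde, 1.5 kb from Irx5, peaked in Nkx2-1 endoderm-like cells (28.6 CPM) and was called in the same direction as Irx5 between endocardium-like and vascular endothelium-like cells (11.2 against 5.24 CPM). Irx3os, which overlaps Irx3 on the other strand, never exceeded 1.89 CPM. Its r with Irx3 was 0.907, but whether strand was used in counting is not given in the sources used here, so the pair cannot be told apart. Fto, 130.1 kb from Irx3, stood between 21.6 and 103 CPM in all 31 classes. None of 4 neighbours at 10 CPM was called between ventricular-like and atrial-like cells.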

How the data were processed

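The authors deposited 1 matrix of raw UMI counts per gene and barcode for all 6 samples, with gene and barcode lists. The submitters' processing notes name CASAVA 1.8, Cell Ranger 5.0.0, Seurat 4 and mm10, without their roles. The labels conflict on the assay: the descriptions say chromatin, and the other fields RNA, as which the counts were treated. Library totals, and so counting precision, are given above.

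A marker counted with at least 2 UMIs (Tnnt2 with 10). Most gates asked for 2 to 5 markers of a list. Epithelial cells needed Epcam or Cdh1 and at least 1 further marker, and crest-like cells were split by at least 1 marker. Nkx2-1 and Foxa2 endoderm-like cells were split off by 1 gene each. These thresholds were set after seeing the data. The members, lists and gates were chosen with earlier results of these data known. Cells passing at least 2 of the erythroid, myeloid, hepatocyte, cardiomyocyte, endothelium, neuron, glia and epithelial gates (181) were set aside as possible doublets. For this the epithelial gate asked for both Epcam and Cdh1. Cells passing other pairs of gates were kept and placed in a single class by set rules. Counts were summed per class and scaled to CPM. Intervals are exact Poisson, and exact binomial (Clopper-Pearson) for shares. A gene was called between 2 classes with at least 10 CPM in the higher class and a ratio of at least 2. Named were the 6 members, the 5 genes of highest Pearson r for each, and list members at 10 CPM that differed 2-fold. Of the listed neighbours, Bend3 and C1qtnf3 lie on other chromosomes.

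Clusters (51, of which 47 held at least 50 cells) came from 3000 variable genes other than Irx, 40 components, 20 neighbours and the Leiden method at resolution 1.5 (leidenalg 0.10.2, igraph 0.11.9, scikit-learn 1.9.0). Other tools were Python 3.11.15, numpy 2.4.6, scipy 1.17.1 and pandas 2.3.3. The scripts were tested on simulated data. No edgeR or DESeq2 test was run, because libraries could not be assigned to samples. Alternatives were the cell filter, gate, clusters, thinning, averaging, shared barcodes, doublet scores and single libraries. Splits of classes by cluster and correlations without some classes were added after seeing the data.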

Additional observations from a re-analysis of the deposited data

How the results depend on the processing

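None of the levels and ratios named in this paragraph changed direction under the alternatives run. Ratios not named in this paragraph were not recomputed under them. No paired analysis was possible because the libraries carry no replicate number and no test between groups was made. For the same reason the alternatives for STZ against vehicle were not run. Where a value moved, the cause was not tested. Thinning each cell to 5000 UMIs gave levels of 202 CPM for Irx1 and 115 CPM for Irx3 in Nkx2-1 endoderm-like cells, 62.0 CPM for Irx4 in ventricular-like cells, and 149 and 14.01 CPM for Irx5 and Irx6 in endocardium-like cells. It gave ratios of 1.52 (Irx4, ventricular to AV canal-like), 3.86 (Irx4, ventricular to surface ectoderm-like), 74.6, 26.2 and 31.7 (Irx4, Irx1 and Irx2, ventricular to atrial-like), 9.41 (Irx5, endocardium to vascular-like), 2.99 (Irx6, endocardium to endothelium and cushion-like), 3.37 and 2.58 (Irx1 and Irx2, Nkx2-1 endoderm to pouch-like) and 1.93 (Irx3, Nkx2-1 endoderm to surface ectoderm-like). The shares of cells with a UMI became 26.2% (Irx4, ventricular-like), 41.5% (Irx5, endocardium-like) and 6.35% (Irx6, endocardium-like), and the shares of cells with both genes over the product became 1.85 (Irx5 and Irx6), 3.46 (Irx1 and Irx2) and 2.52 (Irx3 and Irx5). Averaging over cells gave 203, 161 and 98.1 CPM for Irx1, Irx2 and Irx3 in Nkx2-1 endoderm-like cells, and ratios of 1.59 and 3.99 for Irx4 from ventricular to AV canal-like and surface ectoderm-like cells, 10.3 for Irx5 and 2.97 for Irx2 from Nkx2-1 endoderm to pouch-like cells. The stricter gate gave 58.1 CPM for Irx4 in ventricular-like cells and ratios of 1.43 and 3.70 to AV canal-like and surface ectoderm-like cells, and 7.34 and 8.54 for Irx1 and Irx2 between the chambers. Clusters gave 216 and 20.6 CPM for Irx5 and Irx6 in endocardium-like cells, and ratios of 1.61, 3.18, 7.48 and 9.71 for Irx4 (AV canal, ectoderm), Irx1 and Irx2, 73.7 for Irx5 and 1673 for Irx4 between the chambers (interval 300.2 to 66108, from few atrial UMIs). No cluster was named Nkx2-1 endoderm or endothelium and cushion. The endocardium values by cluster are those of the Npr3 cluster alone, without the Pdlim3 and Hapln1 cluster. Without shared barcodes Irx5 and Irx6 in endocardium-like cells were 167 and 16.4 CPM, the Irx5 ratio was 10.1 and the Irx3 ratio between chambers was 5.59. Without the 1746 cells (4.86%) of highest doublet score Irx1 in Nkx2-1 endoderm-like cells was 194 CPM, Irx5 in endocardium-like cells 170 CPM, and the Irx1 and Irx2 ratios between chambers 23.5 and 41.2. Leaving out 1 library at a time gave levels of 182 to 189 (Irx1), 140 to 147 (Irx2), 88.4 to 95.1 (Irx3), 64.7 to 68.2 (Irx4), 148 to 166 (Irx5) and 12.3 to 16.5 CPM (Irx6) in their highest classes. The ratios between chambers ran from 208 to 407 (Irx4), 12.8 to 19.0 (Irx1), 13.3 to 18.6 (Irx2) and 3.92 to 4.93 (Irx3). Those of Irx4 to AV canal-like cells ran from 1.64 to 1.87 and to surface ectoderm-like cells from 4.16 to 4.77, those of Irx5 from 11.0 to 14.1 to vascular-like and 3.40 to 3.81 to Nkx2-1 endoderm-like cells, and those of Irx6 from 4.15 to 5.59. Those of Nkx2-1 endoderm-like to pouch-like cells ran from 2.90 to 3.26 (Irx1) and 2.71 to 2.86 (Irx2), and of Irx3 to surface ectoderm-like cells from 1.62 to 1.79. Depth limits the statements on Irx6 and on atrial-like Irx4, which rest on few UMIs.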
